A study of Mus musculus with 21 samples.

Results

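Interferon-stimulated antiviral genes are the genes that cells switch on to hold back viruses, and 42 of them were followed here in mouse bone marrow-derived macrophages (BMDMs). The 42 were taken from a list of symbols set by known function, chosen with earlier results of these data known. Shares of all genes given beside the list therefore describe it and are not an independent test of it. All 42 were found among the 47069 gene identifiers of the count table, 2 of them by an older symbol (Ifit3b and Phf11d). The study compared BMDMs given 10 ng/ml interleukin-4 and interleukin-13 (IL), tumour necrosis factor (TNF) or all of these for 6 h or 24 h with untreated cells at 0 h, by RNA sequencing of 21 libraries in 7 groups of 3. The groups were IL_TNF_6h, IL_6h, TNF_6h, IL_TNF_24h, IL_24h and TNF_24h, with Ctrl_0h as the untreated group. The cells were grown out of marrow taken from wild-type C57BL/6 mice aged 8-10 weeks, with M-CSF, the growth factor that turns marrow cells into macrophages. Nothing in the labels ties the 3 libraries of a group to different mice or cultures, so p-values measure the spread between these libraries, which may be technical. Untreated cells were taken at 0 h only, so each comparison with Ctrl_0h also carries 6 h or 24 h in culture.

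As background, type I interferons bind a receptor made of Ifnar1 and Ifnar2, whose kinases Jak1 and Tyk2 activate the factor Stat2. Together with Irf9 it acts in a complex that binds the interferon-stimulated response element (ISRE) in front of antiviral genes. TNF signals mainly through NF-kB and can induce small amounts of interferon-beta (Ifnb1) in macrophages. IL-4 and IL-13 signal through Stat6 and drive the macrophage state known as alternative activation.

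The DNA in front of the transcription start is shown for 7 of the genes, 6 with an ISRE core there and Ifitm6, which had none in this window. Promoters of 30 of the 42 genes were found in RefSeq (build GRCm38.p6), each 250 bases before to 50 bases after the start. An ISRE core, written as GAAA, any 2 bases, then GAAA on either strand, was in 13 of these 30 (43.3%), against 3.99% of 27025 genes with a promoter in the table. Those without a core included Ifi44, which had the largest TNF_6h effect of the 42 genes, and Ifit2, Isg20, Oasl1 and Cmpk2. Whether a core goes with the size of a response was not tested. A STAT6-type site, TTC and GAA with 4 bases between them, was in 5 of 30 (16.7%), against 8.01% of all genes. A loose NF-kB pattern, GGG and CC with 5 bases between them, was in 18 of 30 promoters, against 53.52% of all genes, a share close to that of all genes. A match describes the letters in the window and is not a measured binding site. The windows shown are the last 200 bases before the start, read 5′ to 3′ on the gene's strand, with ISRE cores in capitals. Their positions were Isg15, chr4:156200819-156201018 (minus strand), Ifit1, chr19:34640689-34640888 (plus strand), Ifit3, chr19:34583329-34583528 (plus strand), Ifit3b, chr19:34607757-34607956 (plus strand), Rsad2, chr12:26456453-26456652 (minus strand), Bst2, chr8:71537473-71537672 (minus strand) and Ifitm6, chr7:141016893-141017092 (minus strand).
Isg15: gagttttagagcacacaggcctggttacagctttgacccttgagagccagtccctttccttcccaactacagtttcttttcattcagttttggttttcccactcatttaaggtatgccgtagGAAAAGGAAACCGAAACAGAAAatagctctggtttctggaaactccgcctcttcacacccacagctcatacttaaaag
Ifit1: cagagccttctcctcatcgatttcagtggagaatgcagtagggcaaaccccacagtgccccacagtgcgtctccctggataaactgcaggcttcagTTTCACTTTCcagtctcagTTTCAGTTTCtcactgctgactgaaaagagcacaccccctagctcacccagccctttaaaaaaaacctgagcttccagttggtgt
Ifit3: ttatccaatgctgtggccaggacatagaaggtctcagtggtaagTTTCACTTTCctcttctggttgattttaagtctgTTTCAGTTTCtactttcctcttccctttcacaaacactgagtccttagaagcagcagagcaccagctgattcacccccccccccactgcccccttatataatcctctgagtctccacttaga
Ifit3b: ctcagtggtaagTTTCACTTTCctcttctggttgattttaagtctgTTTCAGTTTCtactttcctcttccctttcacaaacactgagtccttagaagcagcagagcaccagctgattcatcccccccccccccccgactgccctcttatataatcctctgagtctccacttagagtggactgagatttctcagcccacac
Rsad2: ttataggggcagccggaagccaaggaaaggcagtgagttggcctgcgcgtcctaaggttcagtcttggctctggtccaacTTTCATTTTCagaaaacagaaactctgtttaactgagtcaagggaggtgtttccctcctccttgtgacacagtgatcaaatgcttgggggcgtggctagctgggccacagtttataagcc
Bst2: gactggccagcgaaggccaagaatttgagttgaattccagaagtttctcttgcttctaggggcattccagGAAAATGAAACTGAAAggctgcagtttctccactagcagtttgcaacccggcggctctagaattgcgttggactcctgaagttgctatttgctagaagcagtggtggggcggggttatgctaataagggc
Ifitm6: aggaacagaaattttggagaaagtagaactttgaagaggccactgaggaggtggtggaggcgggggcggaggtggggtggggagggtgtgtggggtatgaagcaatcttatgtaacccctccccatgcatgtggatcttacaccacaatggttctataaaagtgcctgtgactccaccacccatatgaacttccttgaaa

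Library totals ranged from 28.1 M to 48.7 M counts. The macrophage markers Adgre1, Csf1r, Cd68, Mertk, Fcgr1, Lyz2 and Itgam were present in every group. Markers of plasmacytoid dendritic cells, the blood cells that make most type I interferon, summed to 32.6 to 35.2 CPM in TNF_6h and 40.9 to 56.5 CPM in TNF_24h, against 43.0 to 47.9 CPM in Ctrl_0h, mostly Tcf4, and their defining marker Siglech was at most 0.372 CPM. These 7 markers moved unevenly. In TNF_6h Cox6a2 and Spib lay above every Ctrl_0h library, Siglech and Tcf4 lay below, and 3 overlapped. In TNF_24h Spib lay above, Siglech lay below and 5 overlapped. Their part in the results was not tested. The libraries fell into 3 sets that the labels do not describe. Xist was at most 0.145 CPM and Ddx3y, a Y-linked gene, at least 41.8 CPM in the IL_24h and IL_TNF_24h libraries, while Xist was at least 162 CPM and Ddx3y at 0 in the others. Ifi202b was 30.3 to 64.1 CPM in IL_6h and IL_TNF_6h libraries and at 0 elsewhere. Comparisons of IL with Ctrl_0h and of IL_TNF with TNF cross these sets, so the cytokines and the set cannot be told apart there. TNF against Ctrl_0h and IL_TNF against IL each stayed within 1 set, and the interactions compare such within-set effects. The change of the TNF effect with IL from 6 h to 24 h compares such effects from different sets. Time and the set cannot be told apart there. In Ctrl_0h replicate 2, 27761 genes had a count, against 16996 to 20631 in the other libraries, and this library was the lowest of its group for 39 of the 42 genes. IL_TNF_24h replicate 1 was the highest of its group for 41 of the 42, at a median of 3.15 times the mean of the other replicates, while across all genes it was highest for 38.6%. In Ctrl_0h replicate 2, markers of conventional dendritic cells summed to 10.1 CPM, B cell markers to 9.23 CPM and fibroblast markers to 5.14 CPM, against at most 1.07 CPM for each list in the other Ctrl_0h libraries. Fibroblast markers also summed to 11.7 CPM in IL_6h replicate 2, against 2.41 and 3.13 CPM in its group. In IL_TNF_6h replicate 3 they summed to 8.42 CPM, against 1.85 and 1.48 CPM. Among the 42 genes, IL_6h replicate 2 was 0.629 (Bst2) to 1.80 (Herc6) times the mean of its other replicates. For IL_TNF_6h replicate 3 this was 0.655 (Bst2) to 1.59 (Samd9l) times. Counts over the 42 genes are given with and without Ctrl_0h replicate 2 or IL_TNF_24h replicate 1, whichever enters the comparison.

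Levels below are CPM, read counts scaled to a common library size after TMM normalisation, and differences are log2 fold changes with their standard error (SE) from 1 edgeR quasi-likelihood fit to all 21 libraries. A gene is called higher or lower where its Benjamini-Hochberg adjusted p over the 15581 genes tested was under 0.05. All 42 genes passed the filter on low counts. DESeq2, a second test, gave no adjusted p for Ifit1, Ifit2, Oasl1, Rsad2 and Ifi44 in any comparison, so counts by DESeq2 leave out these genes. In bulk RNA, fewer cells of a type and less RNA per cell cannot be told apart.

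TNF alone raised the whole list at 6 h. In TNF_6h against Ctrl_0h all 42 genes were called higher and 0 lower in edgeR's test (0 also at an unadjusted p under 0.05 and by DESeq2), against 18.8% of all genes called higher and 20.5% called lower. Their median log2 fold change was 2.60, with a range of 1.16 for Ifi27l2a to 5.39 for Ifi44, against a median of -0.04 over all genes tested. Every TNF_6h library was above every Ctrl_0h library for all 42 genes, against 25.9% of all genes tested. In TNF_24h against Ctrl_0h 40 genes were called higher and 0 lower (0 also at an unadjusted p under 0.05 and by DESeq2), against backgrounds of 20.9% higher and 24.4% lower, with a median of 3.17. The 2 not called were Ifitm6 at 0.29 ± 0.15 (SE) and Ifi27l2a at 0.39 ± 0.20 on the log2 scale. Without Ctrl_0h replicate 2, 42 genes at 6 h and 39 at 24 h were called higher, Ifitm3 being the one lost. The 7 macrophage markers moved unevenly. Their sum was 37100 to 39900 CPM in TNF_6h and 26700 to 32000 CPM in TNF_24h, against 20000 to 24300 CPM in Ctrl_0h libraries, and most of it was Lyz2, at 29640 to 32150, 19500 to 24460 and 16480 to 19120 CPM in these groups. In TNF_6h 5 of the 7 lay above every Ctrl_0h library, Itgam lay below and Cd68 overlapped, and in TNF_24h 4 lay above, Itgam lay below, and Cd68 and Mertk overlapped. Their part in the result was not tested.

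Under TNF alone, more of the list was called higher than lower at 24 h against 6 h. In TNF_24h against TNF_6h 14 genes were called higher and 4 lower, against 12.7% of all genes higher and 10.9% lower. The share of members called lower was thus close to that of all genes. The largest increases were in Rsad2, Cmpk2, Mx2 and Mx1, at 2.49 ± 0.56, 2.23 ± 0.49, 2.08 ± 0.42 and 2.05 ± 0.37 on the log2 scale (SE). The others called higher were Ifit1, Ifih1, Eif2ak2, Parp14, Usp18, Dtx3l, Samd9l, Parp9, Tor3a and Nmi, from 1.77 for Ifit1 to 0.61 for Nmi. The 4 called lower were Ifitm6, Bst2, Lgals3bp and Ifi27l2a, from -1.24 ± 0.15 for Ifitm6 and -1.18 ± 0.31 for Bst2 to -0.77 ± 0.20 for Ifi27l2a. The oligoadenylate synthetases were not called in either direction, with log2 fold changes of -0.27 to 0.63. TNF_24h and TNF_6h libraries did not overlap for 32 of the 42 genes, 26 with TNF_24h above and 6 with it below, against 21.5% of all genes tested above and 20.6% below. The share of members below was thus under that of all genes. The count called higher was 26 without a filter on low counts, 25 with only the compared groups fitted, and 27, with 6 lower, when Ctrl_0h replicate 2 and IL_TNF_24h replicate 1 were left out of the fit.

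**Figure D1:**
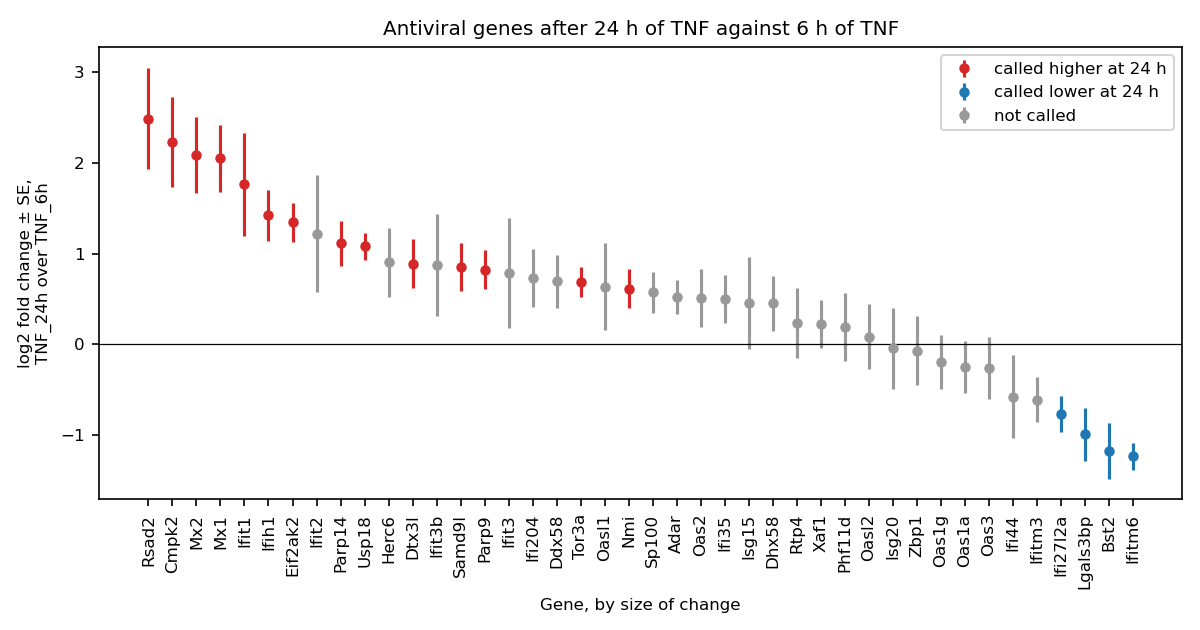
Each point is the log2 fold change of 1 gene in TNF_24h over TNF_6h libraries, with its SE as a bar, and the genes run from the largest increase to the largest decrease. Rsad2, Cmpk2, Mx2 and Mx1 stand highest on the left, and Lgals3bp, Bst2 and Ifitm6 lowest on the right.

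With IL alone, called genes were mostly higher at 6 h and mostly lower at 24 h. In IL_6h against Ctrl_0h 17 genes were called higher and 2 lower, Ifitm6 and Ifi35, against 32.8% of all genes called higher and 31.6% called lower, so the share of members called higher was close to that of all genes. In IL_24h against Ctrl_0h 5 genes were called higher (Dtx3l, Samd9l, Eif2ak2, Adar and Tor3a) and 21 lower, against 31.7% higher and 32.6% lower. The median log2 fold change of the members was 0.61 at 6 h and -1.07 at 24 h, against -0.01 and -0.06 over all genes. Oasl1 was called higher at 6 h and lower at 24 h, at 1.41 ± 0.51 in IL_6h and -2.83 ± 0.58 in IL_24h on the log2 scale (SE). Without Ctrl_0h replicate 2 the counts were 15 higher and 2 lower at 6 h, and 4 higher and 23 lower at 24 h, and Oasl1 was not called at 6 h (edgeR adjusted p = 0.0780), nor Samd9l at 24 h (edgeR adjusted p = 0.114). Among the 7 macrophage markers, Adgre1, Csf1r and Mertk lay above and Fcgr1 and Lyz2 below every Ctrl_0h library in IL_6h. In IL_24h Csf1r and Mertk lay above, and Fcgr1, Lyz2 and Itgam below. Lyz2 was 10570 to 11990 CPM in IL_6h and 6463 to 7502 CPM in IL_24h, against 16480 to 19120 CPM in Ctrl_0h libraries, and the list's sum was 17400 to 19900 and 11600 to 12500, against 20000 to 24300 CPM. Their part in these counts was not tested. These comparisons cross the sets of libraries named above.

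**Figure D2:**
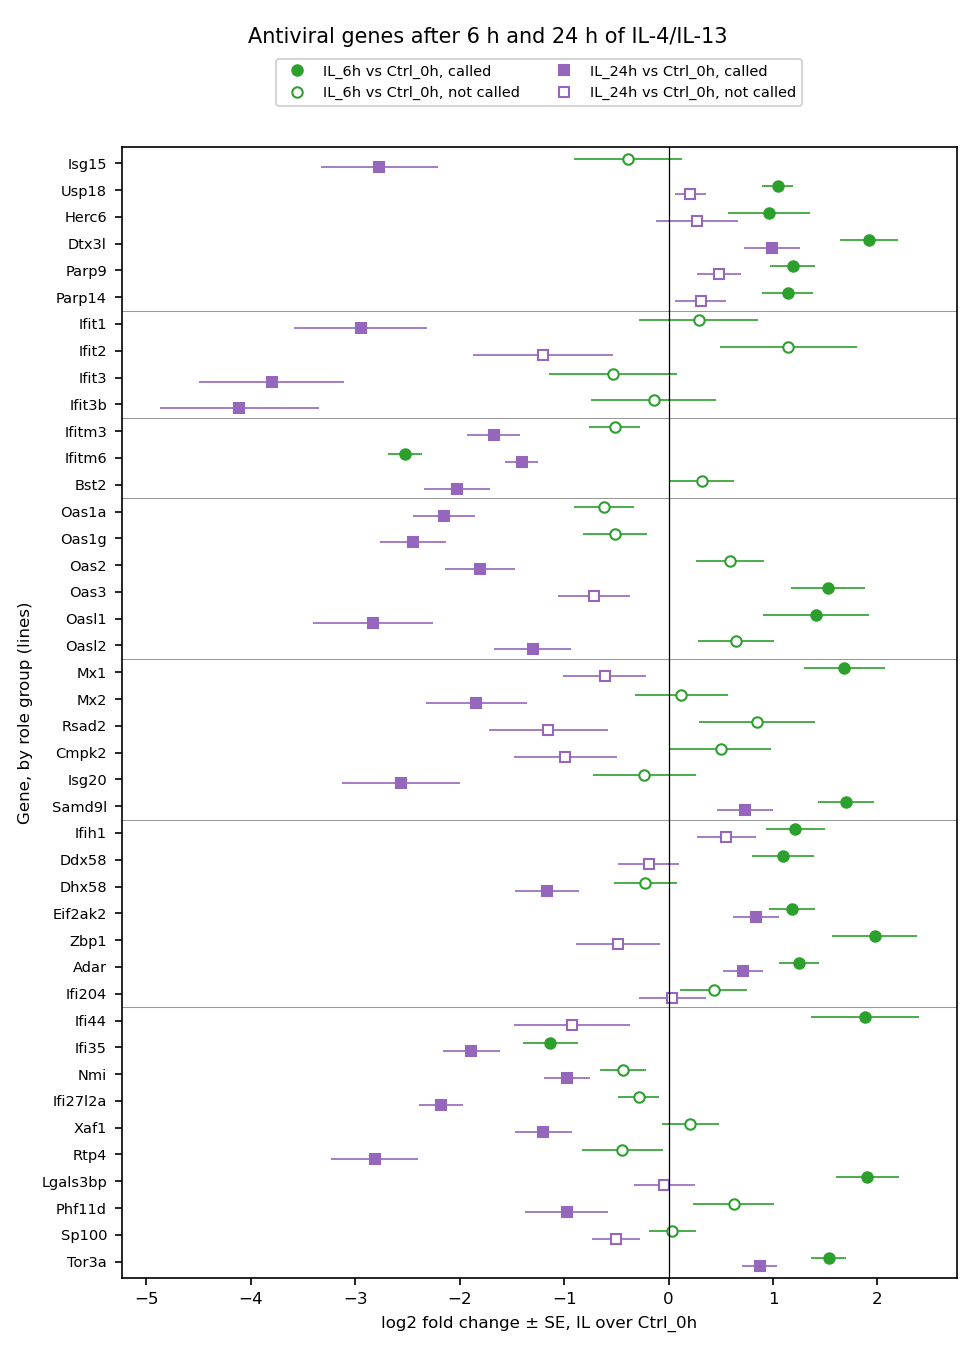
Each point is the log2 fold change ± SE of 1 gene in IL_6h (circles) or IL_24h (squares) over Ctrl_0h libraries, filled where it was called, with lines between the role groups. At 24 h the IFIT genes, oligoadenylate synthetases and membrane factors lie left of 0, and Dtx3l, Samd9l, Eif2ak2, Adar and Tor3a lie right of it.

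TNF added to IL also raised much of the list. In IL_TNF_6h against IL_6h 25 genes were called higher and 0 lower (0 also at an unadjusted p under 0.05 and by DESeq2), against 7.09% of all genes higher and 6.98% lower, with a median of 1.06 on the log2 scale. Leaving out single libraries gave 12 called higher without IL_6h replicate 3, 13 without IL_6h replicate 1, and 16 without IL_TNF_6h replicate 2 or without IL_TNF_6h replicate 3. In IL_TNF_24h against IL_24h 39 were called higher and 1, Ifitm6, lower, against 6.03% higher and 5.08% lower, with a median of 1.67. Without IL_TNF_24h replicate 1 this became 28 higher and 1 lower, with a median of 0.92.

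Against TNF alone, the cells that also had IL carried less of most of these transcripts. In IL_TNF_6h against TNF_6h 25 genes were called lower and 3 higher (Dtx3l, Parp14 and Samd9l), against 29.7% of all genes called higher and 27.5% lower, with a median of -1.30. None of the 3 was called higher without IL_TNF_6h replicate 3. In IL_TNF_24h against TNF_24h 40 genes were called lower and 0 higher (0 also at an unadjusted p under 0.05 and by DESeq2), against 29.2% higher and 27.1% lower, with a median of -2.28. The 2 not called were Oas3 and Lgals3bp, and without IL_TNF_24h replicate 1 all 42 were called lower, with a median of -2.98. These comparisons also cross the sets of libraries.

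The interaction is the TNF effect with IL minus the TNF effect without IL on the log2 scale, and a negative value means a smaller TNF effect with IL. The effect without IL is taken against Ctrl_0h, so it also carries 6 h or 24 h in culture, while the effect with IL compares libraries of the same time. A change with time in culture therefore enters the interaction and cannot be told apart from TNF there. At 6 h, 28 genes had a called negative interaction and 0 a positive one (0 also at an unadjusted p under 0.05 and by DESeq2), against 9.13% of all genes negative and 9.27% positive, with a member median of -1.50. At 24 h, 24 were negative and 0 positive (0 also at an unadjusted p under 0.05 and by DESeq2), against 12.5% negative and 11.6% positive, with a median of -1.69. Of the 42 genes, 16 were negative at both times, 12 at 6 h alone, 8 at 24 h alone and 6 at neither time, a count of calls that does not show that the times differ. The 6 were Ifit1, Ifit2, Ifit3, Ifit3b, Oas2 and Rtp4. Without IL_TNF_24h replicate 1 the 24 h count was 37 negative with a median of -2.52. Without Ctrl_0h replicate 2 the counts were 20 at 6 h and 22 at 24 h. The calls lost were those of Isg15, Dtx3l, Oas1a, Oasl2, Ifih1, Dhx58, Nmi and Sp100 at 6 h and of Isg20 and Xaf1 at 24 h, with edgeR adjusted p from 0.0559 to 0.101. The effects with and without IL come from different sets of libraries, so IL and the set cannot be told apart in how strongly the cells responded to TNF.

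The difference between times was tested directly, as the effect of TNF given with IL after 24 h minus the 6 h effect. These effects come from different sets of libraries, so time and the set cannot be told apart in this difference. It was called positive for 3 genes (Usp18, Oas3 and Ifi44) and negative for 1 (Ifitm6), against 1.89% of all genes positive and 1.78% negative. Without IL_TNF_24h replicate 1 it was positive for 3 genes and negative for 6, and the member median moved to -0.20, against 0.75 with all libraries. Without IL_TNF_24h replicate 2 it was positive for 6 genes, and without IL_TNF_24h replicate 3 for 9.

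**Figure D3:**
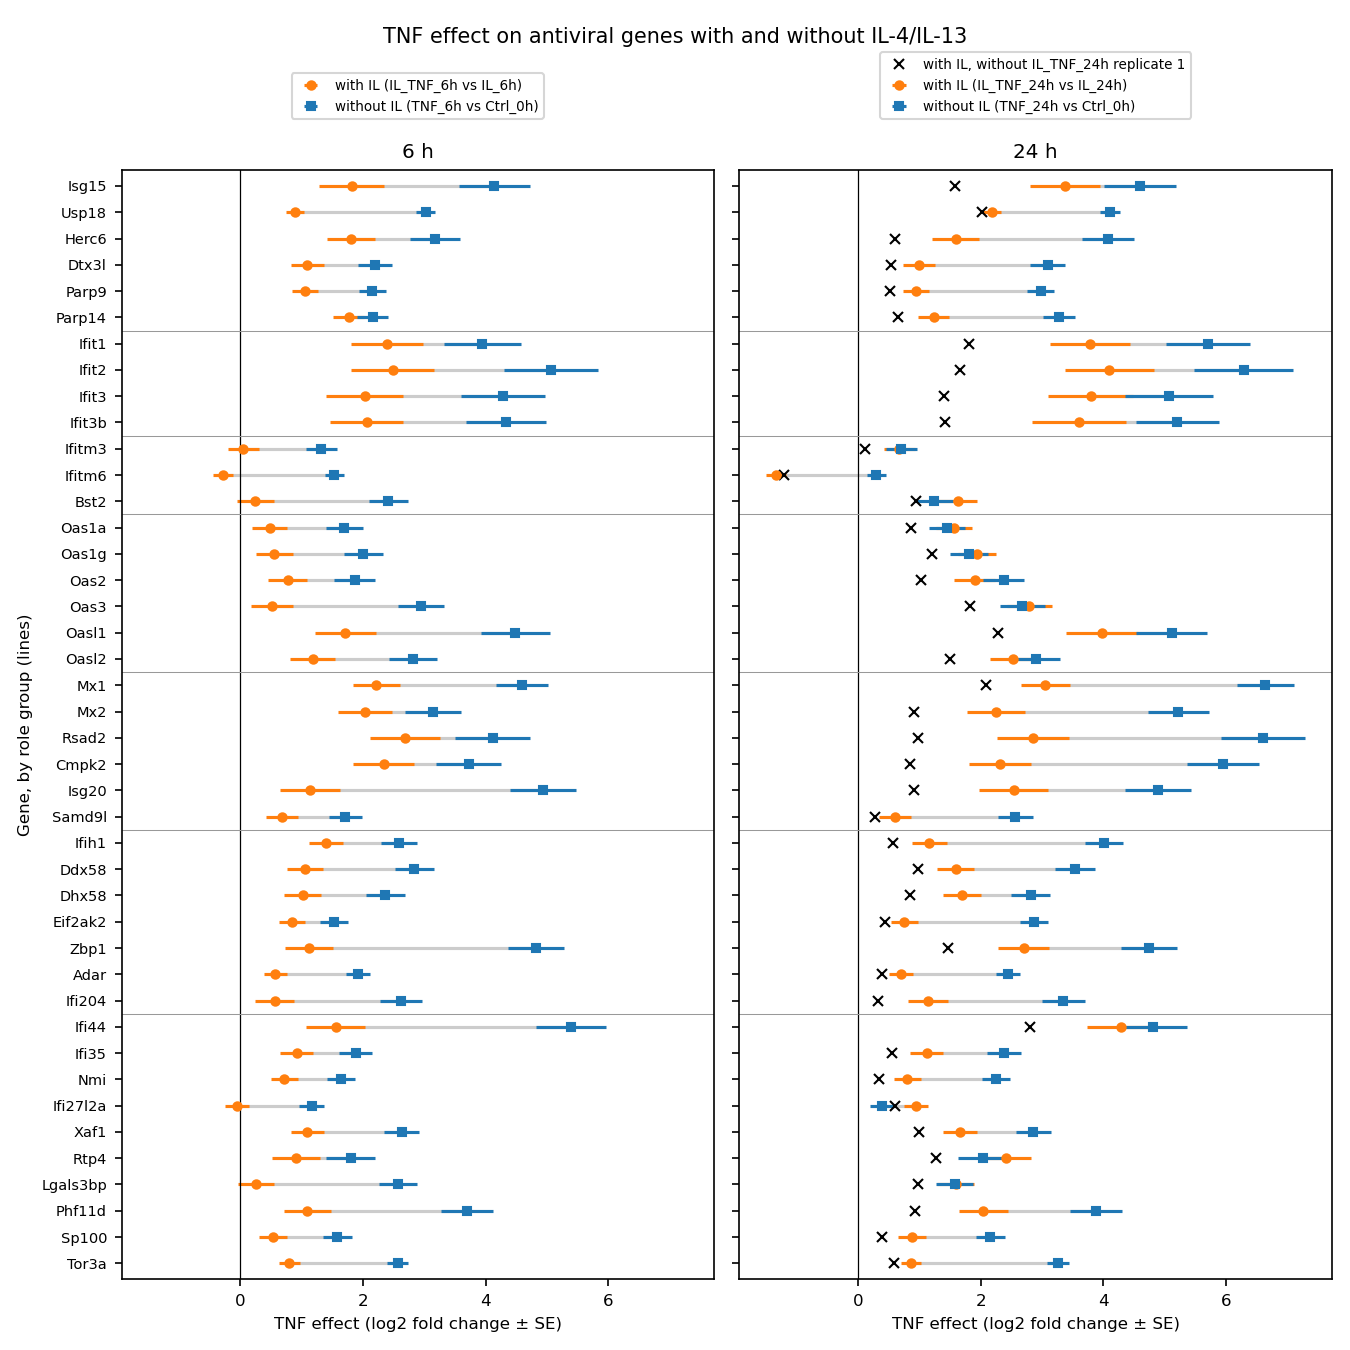
For each gene the circle is the TNF effect with IL (IL_TNF over IL) and the square the TNF effect without IL (TNF over Ctrl_0h), as log2 fold changes ± SE at 6 h (left) and 24 h (right), and crosses give the 24 h effect without IL_TNF_24h replicate 1. At 6 h every circle lies left of its square, and at 24 h the circles of Bst2, Oas1a, Oas1g, Oas3, Ifi27l2a, Rtp4 and Lgals3bp lie at or right of theirs.

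The ISG15 system and its ADP-ribosylation partners rose under TNF in all 6 measured members. Isg15, a ubiquitin-like protein that is attached to other proteins, had 84.9, 87.5 and 99.98 CPM in IL_TNF_6h, 25.9, 26.95 and 24.7 in IL_6h, 650.4, 564 and 572 in TNF_6h and 34.2, 29.7 and 37.4 CPM in Ctrl_0h libraries. By 24 h, Isg15 had 125, 15.4 and 14.1 CPM in IL_TNF_24h, 4.75, 3.87 and 6.19 in IL_24h and 943, 905 and 593 CPM in TNF_24h libraries. By Isg15 level, IL_TNF_6h libraries lay below every TNF_6h library and above every IL_6h library, and IL_6h and IL_24h libraries both lay below every Ctrl_0h library. Usp18, the protease that removes ISG15 and dampens interferon receptor signalling, had 75.5, 74.3 and 73.5 CPM in IL_TNF_6h, 39.5, 40.02 and 41.03 in IL_6h, 157, 157 and 162 in TNF_6h and 19.6, 14.4 and 24.4 CPM in Ctrl_0h libraries. By 24 h, Usp18 had 123, 91.8 and 90.7 CPM in IL_TNF_24h, 21.3, 22.6 and 23.6 in IL_24h and 318, 375 and 313 CPM in TNF_24h libraries. For Usp18, IL_TNF_6h libraries lay below every TNF_6h library and above every IL_6h library, and IL_6h libraries lay above every Ctrl_0h library and IL_24h overlapped Ctrl_0h libraries. The TNF_6h effect was 4.14 ± 0.58 on the log2 scale for Isg15 (SE, edgeR adjusted p = 1.09e-05) and 3.02 ± 0.16 for Usp18 (edgeR adjusted p = 3.17e-11). Herc6, the main ISG15 ligase in mice, had 44.6, 60.04 and 72.9 CPM in IL_TNF_6h, 10.9, 24.1 and 15.9 in IL_6h, 76.2, 83.9 and 76.5 in TNF_6h and 9.14, 7.303 and 9.72 CPM in Ctrl_0h libraries. By 24 h, Herc6 had 63.5, 15.4 and 16.6 CPM in IL_TNF_24h, 9.97, 10.1 and 11.6 in IL_24h and 129, 158 and 155 CPM in TNF_24h libraries. Herc6 values in IL_TNF_6h libraries lay below every TNF_6h library and above every IL_6h library, and IL_6h and IL_24h libraries both lay above every Ctrl_0h library. Dtx3l, a ubiquitin ligase that pairs with Parp9, had 154, 155 and 239 CPM in IL_TNF_6h, 62.6, 119 and 75.9 in IL_6h, 101, 114 and 97.8 in TNF_6h and 23.8, 19.1 and 25.1 CPM in Ctrl_0h libraries. By 24 h, Dtx3l had 138, 65.4 and 65.01 CPM in IL_TNF_24h, 45.9, 45.5 and 43.5 in IL_24h and 156, 190.3 and 234 CPM in TNF_24h libraries. By Dtx3l level, IL_TNF_6h libraries lay above every TNF_6h and every IL_6h library, and IL_6h and IL_24h libraries both lay above every Ctrl_0h library. Parp9, an ADP-ribosyltransferase family member, had 143, 149 and 179 CPM in IL_TNF_6h, 66.8, 82.7 and 77.4 in IL_6h, 145, 154 and 144 in TNF_6h and 39.2, 26.5 and 33.8 CPM in Ctrl_0h libraries. By 24 h, Parp9 had 136, 63.4 and 68.5 CPM in IL_TNF_24h, 45.3, 46.1 and 47.97 in IL_24h and 229, 275 and 279 CPM in TNF_24h libraries. For Parp9, IL_TNF_6h libraries overlapped the TNF_6h libraries and lay above every IL_6h library, and IL_6h and IL_24h libraries both lay above every Ctrl_0h library. Parp14, an enzyme that adds single ADP-ribose units to proteins, had 786, 790.2 and 958 CPM in IL_TNF_6h, 223, 285 and 238 in IL_6h, 484, 530 and 499 in TNF_6h and 122, 90.8 and 126 CPM in Ctrl_0h libraries. By 24 h, Parp14 had 542, 223 and 215 CPM in IL_TNF_24h, 141, 141 and 136 in IL_24h and 977, 1120 and 1174 CPM in TNF_24h libraries. Parp14 values in IL_TNF_6h libraries lay above every TNF_6h and every IL_6h library, and IL_6h and IL_24h libraries both lay above every Ctrl_0h library. Dtx3l, Parp9 and Parp14 reached higher or overlapping levels in IL_TNF_6h than in TNF_6h libraries, yet Dtx3l and Parp9 had called negative interactions at 6 h, of -1.11 ± 0.38 and -1.10 ± 0.30 (SE), of which Dtx3l lost its call without Ctrl_0h replicate 2 (edgeR adjusted p = 0.0996), and their IL_6h level was 1.92 and 1.19 log2 units above Ctrl_0h. At 24 h all 6 genes were called higher in IL_TNF_24h than in IL_24h, against 6.03% of all genes. All 6 were called lower in IL_TNF_24h than in TNF_24h, against 27.1% of all genes, a comparison that crosses the sets of libraries. Without IL_TNF_24h replicate 1 these counts were 4 higher and 6 lower. That replicate was 1.35 times the mean of the other replicates for Usp18 and 8.50 times for Isg15. Of the 6, 5 had a called negative interaction at 24 h, against 12.5% of all genes. Isg15, at -1.21 ± 0.74, had one without IL_TNF_24h replicate 1, at -3.09 ± 0.27. The TNF effect with IL on Usp18 was larger at 24 h than at 6 h by 1.29 ± 0.21 (SE, edgeR adjusted p = 8.70e-04), and by 1.13 ± 0.20 without IL_TNF_24h replicate 1.

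The IFIT proteins bind viral RNA or block its translation, and all 4 rose under TNF at both times. Ifit1, which binds RNA whose cap lacks host methyl marks, had 85.99, 90.01 and 135 CPM in IL_TNF_6h, 16.4, 26.3 and 16.7 in IL_6h, 249, 269 and 231 in TNF_6h and 16.1, 12.7 and 19.8 CPM in Ctrl_0h libraries. By 24 h, Ifit1 had 72.4, 7.196 and 7.497 CPM in IL_TNF_24h, 1.29, 2.79 and 2.25 in IL_24h and 807, 945 and 793 CPM in TNF_24h libraries. By Ifit1 level, IL_TNF_6h libraries lay below every TNF_6h library and above every IL_6h library, and IL_6h overlapped Ctrl_0h libraries and IL_24h libraries lay below every Ctrl_0h library. Ifit2, an RNA-binding family member, had 192, 236 and 280.3 CPM in IL_TNF_6h, 28.8, 57.4 and 39.9 in IL_6h, 586, 656 and 668 in TNF_6h and 18.8, 12.3 and 25.9 CPM in Ctrl_0h libraries. By 24 h, Ifit2 had 373, 26.1 and 25.6 CPM in IL_TNF_24h, 6.699, 8.06 and 9.97 in IL_24h and 1200, 1642 and 1605 CPM in TNF_24h libraries. For Ifit2, IL_TNF_6h libraries lay below every TNF_6h library and above every IL_6h library, and IL_6h libraries lay above and IL_24h libraries below every Ctrl_0h library. Ifit2 had the largest and Ifit1 the smallest TNF_6h effect of the family, at 5.07 ± 0.76 and 3.95 ± 0.63 on the log2 scale (SE, edgeR adjusted p = 2.64e-05 and 4.94e-05). Ifit3 ranged from 120.3 to 134 CPM in IL_TNF_6h, 25.7 to 34.7 in IL_6h, 786 to 911 in TNF_6h and 31.4 to 52.1 CPM in Ctrl_0h libraries. Ifit3 fell to 2.84 to 3.56 CPM in IL_24h libraries, against that Ctrl_0h range, at -3.80 ± 0.69 on the log2 scale (SE, edgeR adjusted p = 9.85e-05). In IL_TNF_24h it ranged from 7.545 to 115.4 CPM, and in TNF_24h from 1306 to 1668 CPM. Ifit3b ranged from 28.95 to 36.54 CPM in IL_TNF_6h, 5.947 to 10.63 in IL_6h, 143.5 to 193.6 in TNF_6h and 4.02 to 11.7 CPM in Ctrl_0h libraries. At 24 h Ifit3b ranged from 1.23 to 15.5 CPM in IL_TNF_24h, 0.330 to 0.623 in IL_24h and 289 to 361 CPM in TNF_24h libraries. Ifit3 and Ifit3b shared 51.5% and 45.0% of their 50-base windows with other genes, mostly with each other, so their separate values are uncertain. In IL_TNF_24h replicate 1 the 4 genes were 9.86 to 14.4 times the mean of the other replicates, the range with the highest lower end of the 7 role groups. Neither interaction was called for any of the 4 in edgeR's test, where 3 genes at 6 h and 2 at 24 h had an unadjusted p under 0.05, and DESeq2 gave no adjusted p for Ifit1 and Ifit2 and did not call the others. Without IL_TNF_24h replicate 1 all 4 had a called negative interaction at 24 h, from -4.70 to -3.75 on the log2 scale. By 24 h the 4 genes averaged far less in IL_TNF_24h than in TNF_24h libraries, from -5.72 for Ifit3b to -3.39 for Ifit2 on the log2 scale, and from -7.92 ± 0.45 to -5.85 ± 0.36 (SE) without IL_TNF_24h replicate 1, a comparison that crosses the sets of libraries.

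The membrane restriction factors gave the smallest median TNF_6h effect of the 7 role groups, 1.53 on the log2 scale. Ifitm3, which blocks the fusion of viruses in endosomes, had 932, 856 and 720.3 CPM in IL_TNF_6h, 920.3, 632 and 870.4 in IL_6h, 3000, 2766 and 2879 in TNF_6h and 1230, 1076 and 1161 CPM in Ctrl_0h libraries. By 24 h, Ifitm3 had 954, 389 and 386 CPM in IL_TNF_24h, 336, 367 and 382 in IL_24h and 2080, 1984 and 1582 CPM in TNF_24h libraries. Ifitm3 values in IL_TNF_6h libraries lay below every TNF_6h library and overlapped the IL_6h libraries, and IL_6h and IL_24h libraries both lay below every Ctrl_0h library. Ifitm6, another member of the IFITM family, had 2.903, 3.36 and 4.699 CPM in IL_TNF_6h, 5.04, 4.02 and 4.25 in IL_6h, 74.3, 77.7 and 70.7 in TNF_6h and 25.3, 25.2 and 26.4 CPM in Ctrl_0h libraries. By 24 h, Ifitm6 had 3.15, 4.07 and 4.21 CPM in IL_TNF_24h, 9.64, 9.47 and 9.88 in IL_24h and 33.7, 35.1 and 25.6 CPM in TNF_24h libraries. By Ifitm6 level, IL_TNF_6h libraries lay below every TNF_6h library and overlapped the IL_6h libraries, and IL_6h and IL_24h libraries both lay below every Ctrl_0h library. Ifitm6 was the one member called lower in IL_TNF_24h than in IL_24h, at -1.34 ± 0.16 (SE, edgeR adjusted p = 7.78e-06), and -1.22 ± 0.18 without IL_TNF_24h replicate 1. It was also the one member whose replicate 1 was the lowest of the IL_TNF_24h group, at 0.762 times the mean of the others. Ifitm6 was called lower in IL_6h than in Ctrl_0h, at -2.53 ± 0.16, and its interaction was negative at both times, at -1.81 ± 0.22 and -1.63 ± 0.22. Bst2, the tetherin that holds budding viruses at the cell surface, had 729, 682 and 462 CPM in IL_TNF_6h, 679.7, 379 and 525 in IL_6h, 2474, 2205 and 2093 in TNF_6h and 445, 401 and 426 CPM in Ctrl_0h libraries. By 24 h, Bst2 had 566, 209.9 and 187 CPM in IL_TNF_24h, 100.2, 107 and 105 in IL_24h and 1164, 1064 and 764 CPM in TNF_24h libraries. For Bst2, IL_TNF_6h libraries lay below every TNF_6h library and overlapped the IL_6h libraries, and IL_6h overlapped Ctrl_0h libraries and IL_24h libraries lay below every Ctrl_0h library. Bst2 had a called negative interaction at 6 h, at -2.17 ± 0.44 (SE, edgeR adjusted p = 0.0016), and none at 24 h, at 0.39 ± 0.43. The difference of the Bst2 TNF effect with IL between the times, 1.38 ± 0.43, did not pass the test (edgeR adjusted p = 0.0975). All 3 genes were called lower in IL_24h than in Ctrl_0h, against 32.6% of all genes, a comparison that crosses the sets of libraries. Ifitm3 shared 10.0% of its 50-base windows with Ifitm1, Ifitm2 and a predicted gene.

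Oligoadenylate synthetases make the messenger that activates RNase L when double-stranded RNA is present. All 6 were called higher under TNF at both times, against 18.8% of all genes at 6 h and 20.9% at 24 h. In IL_24h 5, all but Oas3, were called lower than in Ctrl_0h, against 32.6% of all genes, a comparison that crosses the sets of libraries. Oas1a, a catalytic family member, had 260, 251 and 198 CPM in IL_TNF_6h, 196, 136 and 177 in IL_6h, 937, 812 and 784 in TNF_6h and 265, 256 and 259 CPM in Ctrl_0h libraries. By 24 h, Oas1a had 305, 106 and 106 CPM in IL_TNF_24h, 53.8, 55.5 and 66.5 in IL_24h and 803, 778 and 544 CPM in TNF_24h libraries. Oas1a values in IL_TNF_6h libraries lay below every TNF_6h library and above every IL_6h library, and IL_6h and IL_24h libraries both lay below every Ctrl_0h library. Oas1g, a close copy of it, had 134, 137 and 99.1 CPM in IL_TNF_6h, 92.8, 72.2 and 87.9 in IL_6h, 591, 462 and 399 in TNF_6h and 117, 121 and 124 CPM in Ctrl_0h libraries. By 24 h, Oas1g had 151, 51.7 and 49.99 CPM in IL_TNF_24h, 18.1, 22.5 and 25.6 in IL_24h and 454, 479 and 329 CPM in TNF_24h libraries. By Oas1g level, IL_TNF_6h libraries lay below every TNF_6h library and above every IL_6h library, and IL_6h and IL_24h libraries both lay below every Ctrl_0h library. Oas1a and Oas1g shared 57.1% and 54.6% of their 50-base windows with each other and Oas1b, so the split of reads between them is uncertain. Oas3, the family member that binds long double-stranded RNA, had 304, 292 and 254 CPM in IL_TNF_6h, 202, 194 and 197 in IL_6h, 549, 529 and 511 in TNF_6h and 75.4, 53.7 and 77.1 CPM in Ctrl_0h libraries. By 24 h, Oas3 had 577, 154 and 141 CPM in IL_TNF_24h, 37.7, 41.7 and 46.3 in IL_24h and 356, 438 and 527 CPM in TNF_24h libraries. For Oas3, IL_TNF_6h libraries lay below every TNF_6h library and above every IL_6h library, and IL_6h libraries lay above and IL_24h libraries below every Ctrl_0h library. Oas3 had a called negative interaction at 6 h, at -2.43 ± 0.49 (SE, edgeR adjusted p = 0.00179), and at 24 h a value of 0.11 ± 0.49 that turned to -0.93 ± 0.21 without IL_TNF_24h replicate 1. The TNF effect with IL on Oas3 was larger at 24 h than at 6 h by 2.28 ± 0.49 (SE, edgeR adjusted p = 0.0107), and by 1.29 ± 0.21 without that library. The IL_TNF_24h and TNF_24h libraries of Oas3 overlapped, and replicate 1 of IL_TNF_24h was above all 3 TNF_24h libraries. Oasl1, which holds back Irf7 translation in mice, had 93.02, 89.01 and 75.6 CPM in IL_TNF_6h, 29.1, 22.9 and 26.7 in IL_6h, 237, 217 and 206 in TNF_6h and 10.4, 6.56 and 12.6 CPM in Ctrl_0h libraries. By 24 h, Oasl1 had 52.1, 6.82 and 6.55 CPM in IL_TNF_24h, 1.23, 1.36 and 1.55 in IL_24h and 319, 379 and 327 CPM in TNF_24h libraries. Oasl1 values in IL_TNF_6h libraries lay below every TNF_6h library and above every IL_6h library, and IL_6h libraries lay above and IL_24h libraries below every Ctrl_0h library. Oasl2, a related protein, had 319, 335 and 327 CPM in IL_TNF_6h, 137, 151 and 144 in IL_6h, 639, 666 and 638 in TNF_6h and 109, 61.03 and 107 CPM in Ctrl_0h libraries. By 24 h, Oasl2 had 438, 113 and 97.6 CPM in IL_TNF_24h, 32.4, 38.8 and 41.1 in IL_24h and 613, 720.3 and 725 CPM in TNF_24h libraries. By Oasl2 level, IL_TNF_6h libraries lay below every TNF_6h library and above every IL_6h library, and IL_6h libraries lay above and IL_24h libraries below every Ctrl_0h library. Oasl1 had the largest TNF_6h effect of the family, 4.48 ± 0.56, and Oas1a the smallest, 1.70 ± 0.29, on the log2 scale. Oas2 ranged from 141 to 144 CPM in IL_TNF_6h, 81.5 to 86.1 in IL_6h, 201 to 207 in TNF_6h and 40.6 to 66.3 CPM in Ctrl_0h libraries. Oas2 at 24 h ranged from 30.2 to 115 CPM in IL_TNF_24h, 14.3 to 17.9 in IL_24h and 255 to 321 CPM in TNF_24h libraries. The 24 h interaction was called for 0 of the 6 in edgeR's test, 0 also at an unadjusted p under 0.05, and for Oas2, Oas3, Oasl1 and Oasl2 without IL_TNF_24h replicate 1.

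The other antiviral effectors gave the largest median TNF_24h effect of the 7 role groups, 5.59 on the log2 scale. Mx1, a GTPase that blocks influenza virus but is not functional in most laboratory strains, had 80.3, 93.2 and 94.1 CPM in IL_TNF_6h, 16.1, 23.8 and 17.6 in IL_6h, 138, 145 and 149 in TNF_6h and 6.87, 3.75 and 7.24 CPM in Ctrl_0h libraries. By 24 h, Mx1 had 64.4, 15.9 and 17.2 CPM in IL_TNF_24h, 3.37, 4.71 and 3.67 in IL_24h and 488, 649 and 651 CPM in TNF_24h libraries. For Mx1, IL_TNF_6h libraries lay below every TNF_6h library and above every IL_6h library, and IL_6h libraries lay above every Ctrl_0h library and IL_24h overlapped Ctrl_0h libraries. Mx2, its paralogue, had 21.8, 22.3 and 20.7 CPM in IL_TNF_6h, 4.53, 5.303 and 6.03 in IL_6h, 41.3, 44.1 and 43.1 in TNF_6h and 4.86, 2.94 and 6.72 CPM in Ctrl_0h libraries. By 24 h, Mx2 had 14.4, 2.66 and 2.42 CPM in IL_TNF_24h, 1.31, 1.27 and 1.48 in IL_24h and 172, 194 and 178 CPM in TNF_24h libraries. Mx2 values in IL_TNF_6h libraries lay below every TNF_6h library and above every IL_6h library, and IL_6h overlapped Ctrl_0h libraries and IL_24h libraries lay below every Ctrl_0h library. Mx1 was 4.59 ± 0.43 higher at 6 h and 6.64 ± 0.47 higher at 24 h of TNF than in Ctrl_0h on the log2 scale (SE, edgeR adjusted p = 7.07e-08 and 9.65e-10). Rsad2, viperin, which makes a nucleotide that stops viral polymerases, had 120.2, 130.2 and 159 CPM in IL_TNF_6h, 16.9, 29.8 and 17.1 in IL_6h, 201, 212 and 204 in TNF_6h and 11.2, 9.67 and 14.7 CPM in Ctrl_0h libraries. By 24 h, Rsad2 had 94.9, 9.63 and 11.3 CPM in IL_TNF_24h, 4.29, 6.61 and 5.14 in IL_24h and 915, 1277 and 1273 CPM in TNF_24h libraries. By Rsad2 level, IL_TNF_6h libraries lay below every TNF_6h library and above every IL_6h library, and IL_6h libraries lay above and IL_24h libraries below every Ctrl_0h library. Cmpk2, a mitochondrial nucleotide kinase, had 127, 138 and 127 CPM in IL_TNF_6h, 24.3, 28.9 and 24.4 in IL_6h, 232, 245 and 247 in TNF_6h and 19.6, 9.54 and 25.7 CPM in Ctrl_0h libraries. By 24 h, Cmpk2 had 104, 17.01 and 16.01 CPM in IL_TNF_24h, 8.199, 9.44 and 10.01 in IL_24h and 836, 1220 and 1348 CPM in TNF_24h libraries. For Cmpk2, IL_TNF_6h libraries lay below every TNF_6h library and above every IL_6h library, and IL_6h and IL_24h libraries both overlapped Ctrl_0h libraries. Rsad2 and Cmpk2 had the most negative 24 h interactions of the 42 genes, at -3.75 ± 0.80 and -3.65 ± 0.70 (SE, edgeR adjusted p = 0.00203 and 8.16e-04). Without IL_TNF_24h replicate 1 these were -5.70 ± 0.36 and -5.18 ± 0.38. Isg20, an exonuclease that degrades RNA, had 11.8, 11.4 and 8.37 CPM in IL_TNF_6h, 5.63, 3.47 and 5.23 in IL_6h, 182, 164 and 172 in TNF_6h and 6.07, 4.26 and 6.49 CPM in Ctrl_0h libraries. By 24 h, Isg20 had 13.2, 1.92 and 1.64 CPM in IL_TNF_24h, 1.07, 0.984 and 0.796 in IL_24h and 172, 197 and 134 CPM in TNF_24h libraries. Isg20 values in IL_TNF_6h libraries lay below every TNF_6h library and above every IL_6h library, and IL_6h overlapped Ctrl_0h libraries and IL_24h libraries lay below every Ctrl_0h library. Samd9l, a poxvirus restriction factor, had 159.9, 183 and 272 CPM in IL_TNF_6h, 96.7, 174 and 113 in IL_6h, 115, 143 and 129.5 in TNF_6h and 46.4, 26.6 and 45.1 CPM in Ctrl_0h libraries. By 24 h, Samd9l had 139, 79.6 and 77.2 CPM in IL_TNF_24h, 65.2, 66.2 and 64.7 in IL_24h and 179.7, 236 and 283 CPM in TNF_24h libraries. By Samd9l level, IL_TNF_6h libraries lay above every TNF_6h library and overlapped the IL_6h libraries, and IL_6h and IL_24h libraries both lay above every Ctrl_0h library. Isg20 had the largest TNF_6h effect of the group, 4.94 ± 0.54, and Samd9l the smallest, 1.71 ± 0.27. The 6 h interaction was called for Mx1, at -2.37 ± 0.53, and for Isg20, at -3.81 ± 0.69. At 24 h the interaction was called negative for all 6, against 12.5% of all genes, and for all but Isg20 without Ctrl_0h replicate 2 (edgeR adjusted p = 0.0563). In the IL_TNF_24h group replicate 1 was 1.78 times the mean of the other replicates for Samd9l and 9.06 times for Rsad2.

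Sensors and binders of viral nucleic acid rose under TNF in all 7 measured members at both times. Ifih1, MDA5, the sensor of long double-stranded RNA, had 95.6, 97.6 and 125 CPM in IL_TNF_6h, 31.01, 52.6 and 37.2 in IL_6h, 101, 111 and 101 in TNF_6h and 19.1, 12.6 and 20.4 CPM in Ctrl_0h libraries. By 24 h, Ifih1 had 95.5, 36.8 and 38.7 CPM in IL_TNF_24h, 25.7, 25.6 and 25.1 in IL_24h and 229, 303 and 308 CPM in TNF_24h libraries. For Ifih1, IL_TNF_6h libraries overlapped the TNF_6h libraries and lay above every IL_6h library, and IL_6h and IL_24h libraries both lay above every Ctrl_0h library. Ddx58, RIG-I, the sensor of short uncapped RNA, had 125, 129 and 155 CPM in IL_TNF_6h, 58.9, 78.5 and 59.04 in IL_6h, 214, 237 and 208 in TNF_6h and 35.7, 18.1 and 38.1 CPM in Ctrl_0h libraries. By 24 h, Ddx58 had 136, 56.1 and 49.3 CPM in IL_TNF_24h, 26.2, 28 and 26.2 in IL_24h and 294, 372 and 401 CPM in TNF_24h libraries. Ddx58 values in IL_TNF_6h libraries lay below every TNF_6h library and above every IL_6h library, and IL_6h libraries lay above every Ctrl_0h library and IL_24h overlapped Ctrl_0h libraries. Dhx58, LGP2, which tunes these sensors, had 99.1, 99.1 and 84.1 CPM in IL_TNF_6h, 49.1, 41.2 and 49.4 in IL_6h, 287, 269 and 283 in TNF_6h and 58.5, 47.7 and 56.7 CPM in Ctrl_0h libraries. By 24 h, Dhx58 had 148, 43.4 and 43.3 CPM in IL_TNF_24h, 22.01, 24.6 and 26.2 in IL_24h and 366, 413 and 367 CPM in TNF_24h libraries. By Dhx58 level, IL_TNF_6h libraries lay below every TNF_6h library and above every IL_6h library, and IL_6h overlapped Ctrl_0h libraries and IL_24h libraries lay below every Ctrl_0h library. Of these 3, Ifih1 was called higher in TNF_24h than in TNF_6h, at 1.42 ± 0.28 (SE, edgeR adjusted p = 8.96e-04). Eif2ak2, PKR, the kinase that stops translation when double-stranded RNA is present, had 67.2, 78.04 and 109 CPM in IL_TNF_6h, 37.7, 58.4 and 45.9 in IL_6h, 54.4, 64.2 and 61.7 in TNF_6h and 22.2, 16.9 and 23.5 CPM in Ctrl_0h libraries. By 24 h, Eif2ak2 had 88.2, 48.4 and 51.8 CPM in IL_TNF_24h, 35.9, 37.4 and 38.5 in IL_24h and 129, 151 and 178 CPM in TNF_24h libraries. For Eif2ak2, IL_TNF_6h libraries lay above every TNF_6h and every IL_6h library, and IL_6h and IL_24h libraries both lay above every Ctrl_0h library. Zbp1, a sensor of left-handed nucleic acid that triggers cell death, had 115, 107 and 112 CPM in IL_TNF_6h, 50.9, 51.9 and 51.03 in IL_6h, 391, 374 and 341 in TNF_6h and 13.3, 11.6 and 14.2 CPM in Ctrl_0h libraries. By 24 h, Zbp1 had 131, 28.3 and 22.9 CPM in IL_TNF_24h, 8.63, 9.73 and 9.61 in IL_24h and 339, 382 and 331 CPM in TNF_24h libraries. Zbp1 values in IL_TNF_6h libraries lay below every TNF_6h library and above every IL_6h library, and IL_6h libraries lay above and IL_24h libraries below every Ctrl_0h library. Zbp1 had the largest TNF_6h effect of the group, 4.82 ± 0.46, and Eif2ak2 the smallest, 1.53 ± 0.22, on the log2 scale. The Zbp1 interaction was -3.70 ± 0.57 at 6 h and -2.04 ± 0.56 at 24 h (SE, edgeR adjusted p = 1.33e-04 and 0.0125). Adar, which edits adenosine in double-stranded RNA, had 161, 167 and 144 CPM in IL_TNF_6h, 107, 99.6 and 112 in IL_6h, 167, 169 and 171 in TNF_6h and 47.9, 31.8 and 54.2 CPM in Ctrl_0h libraries. By 24 h, Adar had 164, 93.97 and 97.5 CPM in IL_TNF_24h, 74.5, 72.3 and 72.6 in IL_24h and 205, 246 and 275 CPM in TNF_24h libraries. By Adar level, IL_TNF_6h libraries overlapped the TNF_6h libraries and lay above every IL_6h library, and IL_6h and IL_24h libraries both lay above every Ctrl_0h library. Ifi204, a DNA-binding protein of the p200 family, had 119.8, 139.9 and 180.3 CPM in IL_TNF_6h, 79.5, 123 and 96.4 in IL_6h, 435, 479 and 446 in TNF_6h and 83.2, 60.8 and 77.4 CPM in Ctrl_0h libraries. By 24 h, Ifi204 had 313, 90.3 and 97.5 CPM in IL_TNF_24h, 69.7, 77.96 and 79.3 in IL_24h and 707, 846 and 696 CPM in TNF_24h libraries. For Ifi204, IL_TNF_6h libraries lay below every TNF_6h library and overlapped the IL_6h libraries, and IL_6h and IL_24h libraries both overlapped Ctrl_0h libraries. Ifi204 shared 28.9% of its 50-base windows with Mnda, Mndal and AI607873, so its value is uncertain. The 6 h interaction was called negative for 6 of the 7, all but Eif2ak2, against 9.13% of all genes. At 24 h it was called negative for 6 of the 7, all but Dhx58, against 12.5% of all genes. Without Ctrl_0h replicate 2 the 6 h interaction was called for 4, Ddx58, Zbp1, Adar and Ifi204. In the IL_TNF_24h group replicate 1 was 1.72 times the mean of the other replicates for Adar and 5.10 times for Zbp1.

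The remaining 10 genes have looser or less settled roles, and all 10 rose in TNF_6h. Ifi44, a cytosolic protein, had 31.1, 35.6 and 41.8 CPM in IL_TNF_6h, 10.1, 15.98 and 10.8 in IL_6h, 134, 151 and 135 in TNF_6h and 4.36, 2.81 and 2.77 CPM in Ctrl_0h libraries. By 24 h, Ifi44 had 79.4, 13.5 and 10.98 CPM in IL_TNF_24h, 1.402, 2.04 and 1.84 in IL_24h and 77.3, 100.2 and 103 CPM in TNF_24h libraries. Ifi44 values in IL_TNF_6h libraries lay below every TNF_6h library and above every IL_6h library, and IL_6h libraries lay above and IL_24h libraries below every Ctrl_0h library. Ifi27l2a, a small mitochondrial or membrane protein, had 212, 202 and 232 CPM in IL_TNF_6h, 234, 216 and 219.8 in IL_6h, 662, 616 and 553 in TNF_6h and 309.6, 249.9 and 259 CPM in Ctrl_0h libraries. By 24 h, Ifi27l2a had 165, 90.95 and 90.9 CPM in IL_TNF_24h, 45.9, 65.5 and 69.2 in IL_24h and 419, 353 and 299 CPM in TNF_24h libraries. By Ifi27l2a level, IL_TNF_6h libraries lay below every TNF_6h library and overlapped the IL_6h libraries, and IL_6h and IL_24h libraries both lay below every Ctrl_0h library. Ifi44 had the largest TNF_6h effect of all 42 genes, 5.39 ± 0.57, and Ifi27l2a the smallest, 1.16 ± 0.20 (SE, edgeR adjusted p = 3.81e-07 and 1.13e-04). The Ifi44 interaction at 6 h was -3.83 ± 0.70 (SE, edgeR adjusted p = 7.07e-04), the most negative of the 42, and at 24 h -0.52 ± 0.72 was not called. The TNF effect with IL on Ifi44 was larger at 24 h than at 6 h by 2.74 ± 0.70 (SE, edgeR adjusted p = 0.0327), and by 1.24 ± 0.30 without IL_TNF_24h replicate 1 (edgeR adjusted p = 0.0209). That call was lost when any single library of IL_6h, IL_TNF_6h or IL_24h was left out, with edgeR adjusted p from 0.0528 to 0.117. Ifi27l2a shared 40.8% of its 50-base windows with Ifi27l2b. Ifi35, a partner of Nmi, had 54.7, 49.8 and 38.9 CPM in IL_TNF_6h, 30.2, 20.8 and 24.8 in IL_6h, 227, 196 and 189 in TNF_6h and 55.2, 58.1 and 52.8 CPM in Ctrl_0h libraries. By 24 h, Ifi35 had 53.8, 22.1 and 21.4 CPM in IL_TNF_24h, 13.98, 15.5 and 15.3 in IL_24h and 344, 312 and 208 CPM in TNF_24h libraries. For Ifi35, IL_TNF_6h libraries lay below every TNF_6h library and above every IL_6h library, and IL_6h and IL_24h libraries both lay below every Ctrl_0h library. Nmi, which binds STAT proteins, had 25.96, 30.5 and 36.5 CPM in IL_TNF_6h, 18.1, 20.4 and 17.96 in IL_6h, 86.4, 79.3 and 73.2 in TNF_6h and 26.6, 24.5 and 25.6 CPM in Ctrl_0h libraries. By 24 h, Nmi had 35.2, 15.5 and 17.2 CPM in IL_TNF_24h, 12.8, 13.1 and 13.1 in IL_24h and 131, 137 and 96.3 CPM in TNF_24h libraries. Nmi values in IL_TNF_6h libraries lay below every TNF_6h library and above every IL_6h library, and IL_6h and IL_24h libraries both lay below every Ctrl_0h library. Ifi35 and Nmi were called lower in IL_24h than in Ctrl_0h, at -1.89 ± 0.27 and -0.98 ± 0.22, and their 24 h interactions were -1.26 ± 0.37 and -1.45 ± 0.31. Xaf1, which binds the apoptosis inhibitor XIAP, had 60.6, 62.7 and 75.1 CPM in IL_TNF_6h, 29, 35.95 and 28.4 in IL_6h, 177, 174 and 149.7 in TNF_6h and 27.1, 24.95 and 28.7 CPM in Ctrl_0h libraries. By 24 h, Xaf1 had 64.8, 24.8 and 21.4 CPM in IL_TNF_24h, 11.8, 10.7 and 12.7 in IL_24h and 210.1, 209 and 165 CPM in TNF_24h libraries. By Xaf1 level, IL_TNF_6h libraries lay below every TNF_6h library and above every IL_6h library, and IL_6h overlapped Ctrl_0h libraries and IL_24h libraries lay below every Ctrl_0h library. Lgals3bp, a secreted glycoprotein that binds galectin-3, had 1935, 1820 and 1337 CPM in IL_TNF_6h, 1659, 1106 and 1508 in IL_6h, 2393, 2197 and 2196 in TNF_6h and 445, 237 and 460 CPM in Ctrl_0h libraries. By 24 h, Lgals3bp had 1888, 743 and 712 CPM in IL_TNF_24h, 346, 381 and 383 in IL_24h and 1003, 1187 and 1211 CPM in TNF_24h libraries. For Lgals3bp, IL_TNF_6h libraries lay below every TNF_6h library and overlapped the IL_6h libraries, and IL_6h libraries lay above every Ctrl_0h library and IL_24h overlapped Ctrl_0h libraries. Lgals3bp was called higher in IL_6h than in Ctrl_0h, at 1.90 ± 0.30, and its 6 h interaction was -2.32 ± 0.42. Phf11d, a PHD finger protein, had 37.5, 40.5 and 45.7 CPM in IL_TNF_6h, 17.1, 22.2 and 18.9 in IL_6h, 159, 178 and 153 in TNF_6h and 14.6, 8.52 and 14.6 CPM in Ctrl_0h libraries. By 24 h, Phf11d had 54.8, 11.99 and 12.2 CPM in IL_TNF_24h, 5.901, 6.52 and 6.77 in IL_24h and 167, 207 and 184 CPM in TNF_24h libraries. Phf11d values in IL_TNF_6h libraries lay below every TNF_6h library and above every IL_6h library, and IL_6h libraries lay above and IL_24h libraries below every Ctrl_0h library. Sp100, a nuclear body protein, had 96.8, 106 and 123 CPM in IL_TNF_6h, 65.6, 89.3 and 70.4 in IL_6h, 214, 239 and 205 in TNF_6h and 80.8, 61.03 and 77.8 CPM in Ctrl_0h libraries. By 24 h, Sp100 had 150.3, 70.3 and 64.3 CPM in IL_TNF_24h, 48.3, 54.4 and 52.3 in IL_24h and 288, 355 and 335 CPM in TNF_24h libraries. By Sp100 level, IL_TNF_6h libraries lay below every TNF_6h library and above every IL_6h library, and IL_6h overlapped Ctrl_0h libraries and IL_24h libraries lay below every Ctrl_0h library. Phf11d shared 13.9% of its 50-base windows with Phf11 and predicted genes. Tor3a, a torsin family ATPase, had 445, 433 and 389 CPM in IL_TNF_6h, 263, 218 and 247 in IL_6h, 509, 485 and 495 in TNF_6h and 94.1, 64.7 and 92.8 CPM in Ctrl_0h libraries. By 24 h, Tor3a had 377, 231 and 228 CPM in IL_TNF_24h, 149, 154 and 158 in IL_24h and 753, 867 and 780 CPM in TNF_24h libraries. For Tor3a, IL_TNF_6h libraries lay below every TNF_6h library and above every IL_6h library, and IL_6h and IL_24h libraries both lay above every Ctrl_0h library. Tor3a was among the 5 genes called higher in IL_24h than in Ctrl_0h, at 0.87 ± 0.17, and its interactions were -1.77 ± 0.24 at 6 h and -2.39 ± 0.24 at 24 h. Rtp4, a receptor-transporting protein, ranged from 168 to 195 CPM in IL_TNF_6h, 80.4 to 109 in IL_6h, 455 to 462 in TNF_6h and 102 to 151 CPM in Ctrl_0h libraries. Rtp4 at 24 h ranged from 44.3 to 210.3 CPM in IL_TNF_24h, 14.4 to 22.9 in IL_24h and 495 to 562 CPM in TNF_24h libraries.

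**Figure D4:**
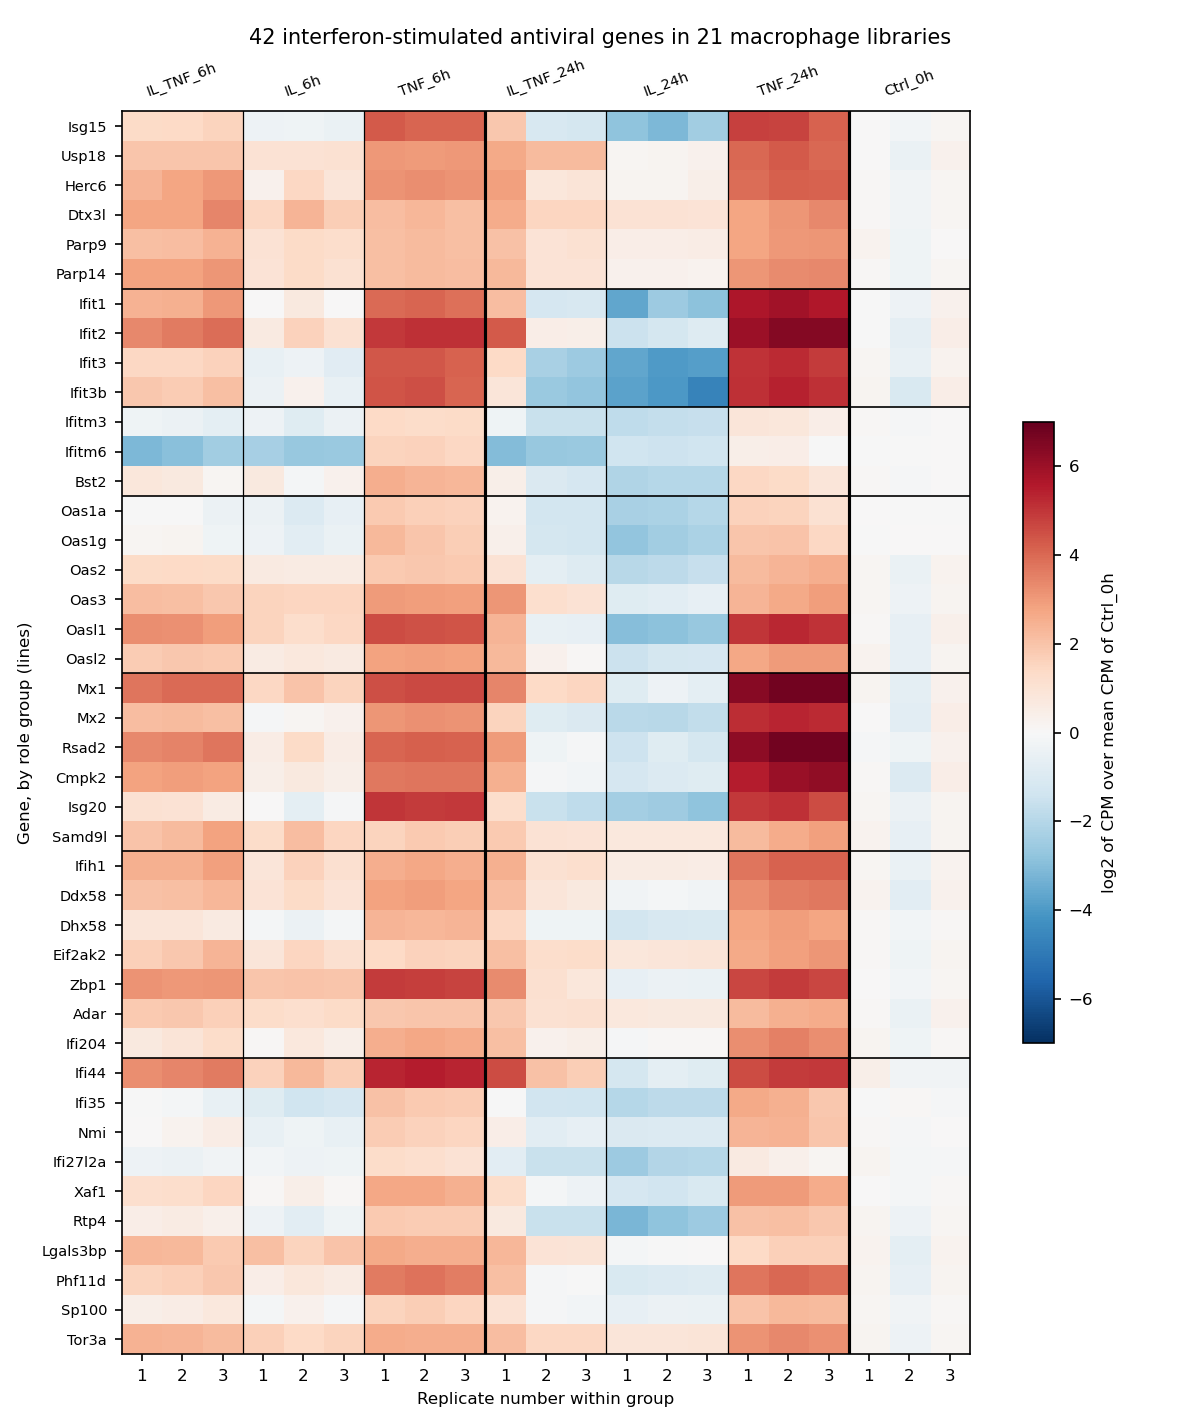
Colour gives the log2 of each library's CPM over the mean CPM of Ctrl_0h for the 42 genes (rows, with lines between role groups) in 21 libraries (columns, by group and replicate). TNF_6h and TNF_24h columns are red throughout most rows, IL_24h columns are blue for the IFIT and oligoadenylate synthetase rows, and replicate 1 of IL_TNF_24h is redder than replicates 2 and 3.

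Replicate 1 of IL_TNF_24h stood apart from its group across the list. The summed level of the 42 genes was 9450, 3377 and 3271 CPM in IL_TNF_24h, 1880, 2028 and 2080 CPM in IL_24h and 21600, 24580 and 22190 CPM in TNF_24h libraries. In all 3 IL_TNF_24h libraries the sum was thus above IL_24h and below TNF_24h. For 35 of the 42 genes replicate 1 was at least 2 times the mean of the other replicates. Of the macrophage markers, Fcgr1 was 94.8, 12.2 and 10.7 CPM and Itgam 88.7, 136.5 and 161.6 CPM in replicates 1, 2 and 3 of this group, while the sum of the 7 was 11800 to 12300 CPM. Markers of conventional dendritic cells summed to 6.78, 17.8 and 18.2 CPM, mostly Zbtb46, at 4.87, 15.4 and 15.6 CPM. Replicate 1 was thus high for Fcgr1 and low for Itgam and Zbtb46, and the part of these markers in its values was not tested.

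**Figure D5:**
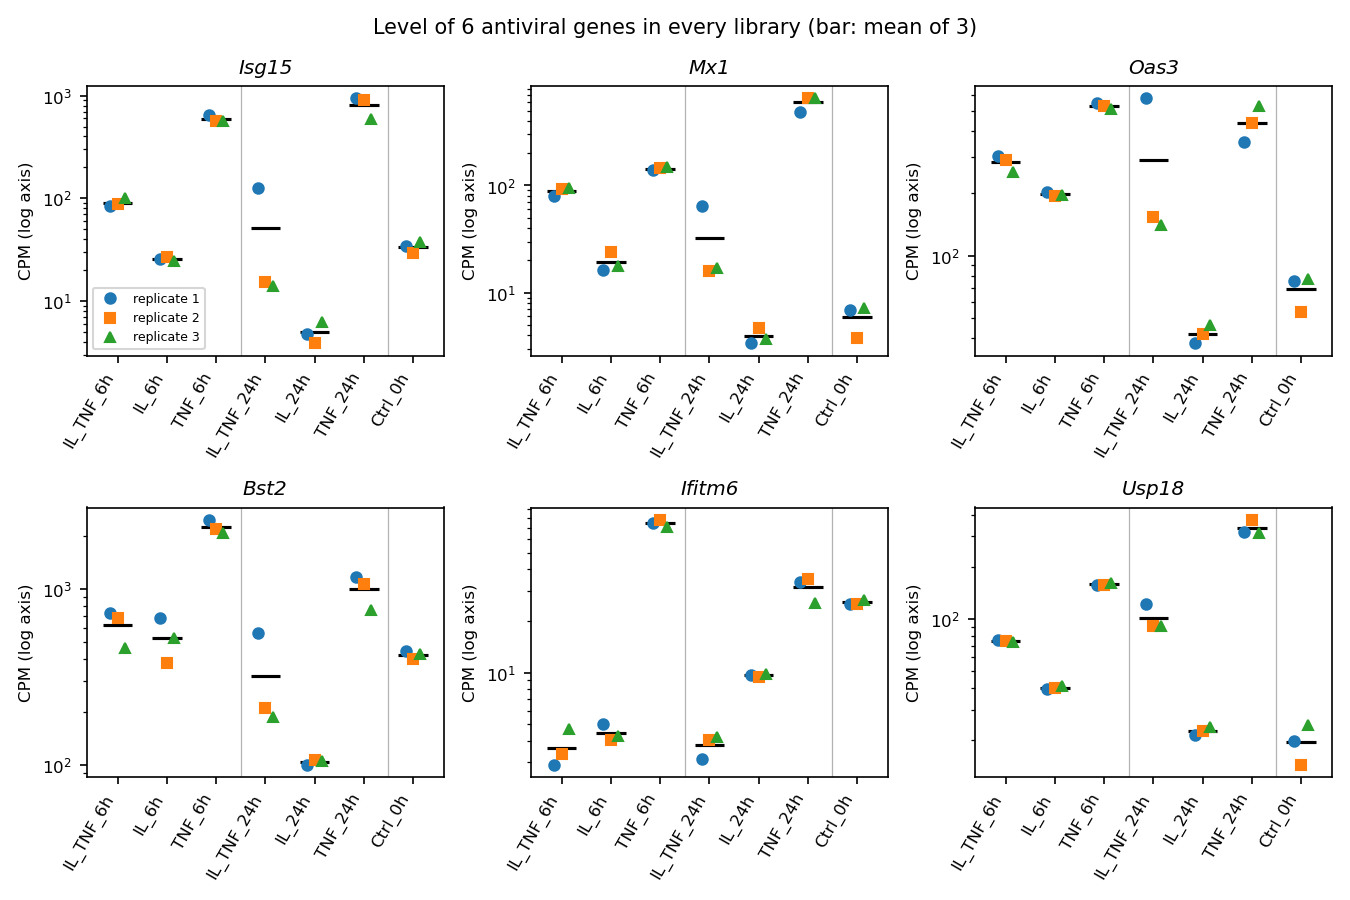
Each point is the CPM of 1 library on a log axis, by group, with a bar at the group mean of 3, for Isg15, Mx1, Oas3, Bst2, Ifitm6 and Usp18. IL_TNF_24h replicate 1 is far above replicates 2 and 3 for Isg15, Mx1, Oas3 and Bst2, and below them for Ifitm6.

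The other genes of the interferon pathway were described from a list of 31, of which 28 were found and 25 passed the filter on low counts. In TNF_6h against Ctrl_0h edgeR called 18 of the 25 higher and 0 lower (0 at an unadjusted p under 0.05), against 18.8% and 20.5% of all genes, and in TNF_24h against Ctrl_0h 20 higher and 1 lower, against 20.9% and 24.4%. In IL_6h 13 were higher and 3 lower than in Ctrl_0h, against 32.8% and 31.6% of all genes, and in IL_24h 13 higher and 5 lower, against 31.7% and 32.6%. With Ctrl_0h replicate 2 left out the counts against Ctrl_0h were 18 higher and 2 lower in TNF_24h, 13 and 4 in IL_6h and 10 and 6 in IL_24h. In IL_TNF_6h against IL_6h edgeR called 10 higher and 0 lower (1 at an unadjusted p under 0.05), against 7.09% and 6.98% of all genes, and in IL_TNF_24h against IL_24h 9 higher and 0 lower (0 at an unadjusted p under 0.05), against 6.03% and 5.08%. Against TNF alone, 8 were higher and 6 lower in IL_TNF_6h, close to the 29.7% and 27.5% of all genes, and 4 higher and 13 lower in IL_TNF_24h, against 29.2% and 27.1%. In TNF_24h against TNF_6h 9 were higher and 2 lower, against 12.7% and 10.9%. The interaction was negative for 9 at 6 h and 13 at 24 h, against 9.13% and 12.5% of all genes, and edgeR called 0 positive at either time (0 at 6 h and 0 at 24 h at an unadjusted p under 0.05). The TNF effect with IL was larger at 24 h than at 6 h for 1, Irf7, and smaller for 2, Ikbke and Myd88, against 1.89% and 1.78% of all genes. That comparison of times also crosses the sets of libraries. Leaving out IL_TNF_24h replicate 1, the 24 h interaction was negative for 16 and the change with time positive for 1 and negative for 3, the third being Irf1. Without Ctrl_0h replicate 2 the interaction was negative for 6 and positive for 1, Cgas, at 6 h, and negative for 13 and positive for 1, Ifnar2, at 24 h.

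Ifnb1, the gene of interferon-beta, was close to the limit of detection, with 22, 10 and 15 counts in TNF_6h, 40, 41 and 9 in TNF_24h and 0, 2 and 0 counts in Ctrl_0h libraries. Scaled by the TMM library sizes, the ratio of summed counts was 24.9 in TNF_6h and 48.1 in TNF_24h over Ctrl_0h. The 95% counting intervals were 6.52 to 211 and 12.9 to 403, which treat each count as independent and cover counting error only. Both Ctrl_0h counts came from Ctrl_0h replicate 2, and without it Ctrl_0h stood at 0, so that no ratio could be formed. In cells with IL, Ifnb1 had 4, 8 and 16 counts in IL_TNF_6h and 0, 10 and 0 in IL_6h libraries, then 2, 0 and 0 in IL_TNF_24h and 0 in all 3 IL_24h libraries. Every TNF_6h and TNF_24h library was thus above every Ctrl_0h library for Ifnb1. The receptor chain Ifnar1 had 174, 172 and 174 CPM in TNF_6h, 182, 183 and 192 in TNF_24h and 131, 104 and 123 CPM in Ctrl_0h libraries, and was called higher in both, at 0.54 ± 0.10 and 0.63 ± 0.10 on the log2 scale. Ifnar2 had 79.9, 80.6 and 84.1 CPM in TNF_24h and 72.9, 70.4 and 68.6 in IL_24h, against 118, 78.4 and 121 CPM in Ctrl_0h libraries, and was called lower in both, at -0.38 ± 0.14 and -0.58 ± 0.14. Neither receptor chain had a called interaction.

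Of the factors that act at the ISRE, Stat2 and Irf9 rose under TNF at both times. Stat2, a factor of type I interferon signalling, had 226, 233 and 210.1 CPM in IL_TNF_6h, 129.9, 128 and 145 in IL_6h, 402, 416 and 406 in TNF_6h and 57.6, 44.3 and 55.4 CPM in Ctrl_0h libraries. By 24 h, Stat2 had 369, 141 and 144 CPM in IL_TNF_24h, 79.3, 80.9 and 87.3 in IL_24h and 471, 578 and 656 CPM in TNF_24h libraries. Stat2 values in IL_TNF_6h libraries lay below every TNF_6h library and above every IL_6h library, and IL_6h and IL_24h libraries both lay above every Ctrl_0h library. Irf9, the DNA-binding subunit of its complex, had 98.3, 94.3 and 86.9 CPM in IL_TNF_6h, 74.8, 67.3 and 75.6 in IL_6h, 112, 118 and 116 in TNF_6h and 61.9, 44.6 and 65.8 CPM in Ctrl_0h libraries. By 24 h, Irf9 had 96.4, 65.6 and 66.3 CPM in IL_TNF_24h, 44.2, 47.6 and 46.3 in IL_24h and 112, 122 and 136 CPM in TNF_24h libraries. By Irf9 level, IL_TNF_6h libraries lay below every TNF_6h library and above every IL_6h library, and IL_6h libraries lay above every Ctrl_0h library and IL_24h overlapped Ctrl_0h libraries. The 6 h interaction was called for both, at -2.23 ± 0.36 and -0.65 ± 0.21 on the log2 scale (SE, edgeR adjusted p = 1.86e-04 and 0.0339). The 24 h interaction was called for Stat2, at -2.04 ± 0.35, and not for Irf9, at -0.38 ± 0.21. With IL_TNF_24h replicate 1 left out these were -2.72 ± 0.18 and -0.65 ± 0.18, both called (edgeR adjusted p = 5.03e-09 and 0.0122), and without Ctrl_0h replicate 2 Irf9 was not called at 6 h (edgeR adjusted p = 0.0822). Irf7, the factor that amplifies interferon production, had 633, 645 and 519.5 CPM in IL_TNF_6h, 608, 450.4 and 550 in IL_6h, 3532, 3015 and 3001 in TNF_6h and 128, 90.95 and 124 CPM in Ctrl_0h libraries. By 24 h, Irf7 had 510, 78.8 and 76.2 CPM in IL_TNF_24h, 11.1, 12.5 and 14.2 in IL_24h and 1564, 1645 and 1220 CPM in TNF_24h libraries. For Irf7, IL_TNF_6h libraries lay below every TNF_6h library and overlapped the IL_6h libraries, and IL_6h libraries lay above and IL_24h libraries below every Ctrl_0h library. Irf7 was called higher in IL_6h and lower in IL_24h than in Ctrl_0h, at 2.23 ± 0.48 and -3.18 ± 0.50 (SE, edgeR adjusted p = 4.53e-04 and 1.91e-05). Its 6 h interaction was -4.64 ± 0.68, and its TNF effect with IL was larger at 24 h than at 6 h by 3.98 ± 0.67 (SE, edgeR adjusted p = 8.00e-05 and 0.00144). In IL_TNF_24h, Irf7 replicate 1 was the highest library of its group, and without it the change between times was 2.46 ± 0.23 and the 24 h interaction -1.14 ± 0.24, against 0.45 ± 0.65 with all libraries (edgeR adjusted p = 0.00162 and 0.655).

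Other pathway genes with a called negative interaction at both times were the kinases Jak1, Jak2 and Ikbke. Jak1 and Jak2, which act at cytokine receptors, had -0.60 ± 0.20 and -0.73 ± 0.22 at 6 h, then -0.78 ± 0.20 and -1.65 ± 0.22 at 24 h on the log2 scale (SE). Ikbke, a kinase that activates interferon regulatory factors, had -1.17 ± 0.17 at 6 h and -2.23 ± 0.17 at 24 h. Called at 6 h but not at 24 h were the receptor chain Ifngr2, at -0.96 ± 0.16, and the adaptor Ticam1, at -0.81 ± 0.19. Called at 24 h but not at 6 h were the sensors Cgas, at -1.68 ± 0.33, and Tlr3, at -3.01 ± 0.40, and the adaptor Myd88, at -1.75 ± 0.16. The factors Irf1 and Irf5 had -2.96 ± 0.33 and -0.85 ± 0.19 at 24 h, the kinases Tbk1 and Tyk2 -0.63 ± 0.16 and -1.75 ± 0.23, and Socs1, which inhibits cytokine signalling, -2.67 ± 0.48. Socs1 had 180, 511 and 177 counts in Ctrl_0h replicates 1, 2 and 3, so its untreated level leaned on replicate 2. The values in this paragraph are from the fit to all 21 libraries. Some 6 h calls of the pathway list, that of Irf9 among them, were lost without Ctrl_0h replicate 2, which left 6 negative at 6 h. The Ikbke and Myd88 changes between the times were -0.81 ± 0.17 and -0.65 ± 0.16.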

How the data were processed

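RNA was sequenced from 21 libraries in 7 groups of 3. Values were raw read counts per Ensembl gene in 1 deposited table. The build GRCm38 and the tools TopHat2 (version 2.0.12), Subread (1.6.3) with featureCounts, and edgeR (3.28.1) are named in the submitters' notes on processing, with no settings, and whether strand was used is not stated there. Even counts were over-represented: the value 2 occurred 30373 times and 1 only 17808 times, and 4 occurred 14538 times and 3 only 9055 times, a feature of the table that touches the precision of low counts such as those of Ifnb1. Totals were 28.1 M to 48.7 M per library.

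From the deposited counts, genes were filtered by edgeR 4.0.16 (filterByExpr by group, R 4.3.3), scaled by TMM and fitted with its quasi-likelihood test, with 1 term per group. Benjamini-Hochberg adjustment ran over 15581 genes in each of 12 contrasts, and the threshold was 0.05. The biological coefficient of variation was 22.8%. CPM used TMM-scaled library sizes. Counting intervals are exact at 95% for independent counts and cover counting error only. The excess of even counts puts that independence in doubt, so the intervals may be too narrow. The edgeR test was tried on simulated counts for 1 contrast, TNF_6h against Ctrl_0h. Shared sequence was the share of 50-base windows of a gene's longest annotated protein-coding transcript also found in another gene's coding transcripts.

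Alternatives were DESeq2 1.42.0 size factors, its Wald test, no filter, a stricter filter (1 CPM in 3 libraries), the compared groups alone, a replicate block, each library left out, and Ctrl_0h replicate 2 with IL_TNF_24h replicate 1 left out together. The members and lists were chosen with earlier results of these data known. The text gives values for all 42 members, and of the pathway genes for those with a called interaction and Stat2, Irf9, Irf7, Ifnb1, Ifnar1 and Ifnar2, except 1 gene that is counted with the list and, like 1 of the 4 promoter motifs searched, not reported here. Ifna1, Ifna5 and Ifnab were not matched, and Ifna2, Ifna4 and Ifng had too few counts to test.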

Additional observations from a re-analysis of the deposited data

Results flagged for a closer look

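The effect of TNF in cells with IL differed from that in cells without IL, by the edgeR test of the difference itself, for 28 genes at 6 h and 24 at 24 h. Every one of these differences was negative, that is, a smaller TNF effect with IL. The effect without IL is taken against cells at 0 h and also carries time in culture, which cannot be told apart from TNF in these differences. At 6 h the difference in log2 effect was -2.33 for Isg15, -2.13 for Usp18, -1.11 for Dtx3l and -1.10 for Parp9 among the ISG15 system. Among the membrane factors at 6 h it was -1.27 for Ifitm3, -1.81 for Ifitm6 and -2.17 for Bst2. Among the oligoadenylate synthetases at 6 h it was -1.22 for Oas1a, -1.46 for Oas1g, -2.43 for Oas3, -2.77 for Oasl1 and -1.63 for Oasl2. Among the other antiviral effectors at 6 h it was -2.37 for Mx1 and -3.81 for Isg20. Among the sensors at 6 h it was -1.20 for Ifih1, -1.78 for Ddx58, -1.35 for Dhx58, -3.70 for Zbp1, -1.35 for Adar and -2.06 for Ifi204. Among the remaining genes at 6 h it was -3.83 for Ifi44, -0.92 for Nmi, -1.22 for Ifi27l2a, -1.55 for Xaf1, -2.32 for Lgals3bp, -2.61 for Phf11d, -1.05 for Sp100 and -1.77 for Tor3a. At 24 h the difference in log2 effect was -1.93 for Usp18, -2.49 for Herc6, -2.10 for Dtx3l, -2.03 for Parp9 and -2.04 for Parp14 among the ISG15 system. Among the membrane factors at 24 h it was -1.63 for Ifitm6. Among the other antiviral effectors at 24 h it was -3.59 for Mx1, -2.98 for Mx2, -3.75 for Rsad2, -3.65 for Cmpk2, -2.36 for Isg20 and -1.97 for Samd9l. Among the sensors at 24 h it was -2.85 for Ifih1, -1.95 for Ddx58, -2.12 for Eif2ak2, -2.04 for Zbp1, -1.74 for Adar and -2.20 for Ifi204. Among the remaining genes at 24 h it was -1.26 for Ifi35, -1.45 for Nmi, -1.20 for Xaf1, -1.85 for Phf11d, -1.28 for Sp100 and -2.39 for Tor3a. The effect of TNF with IL differed between 24 h and 6 h, as the 24 h effect minus the 6 h effect, by 1.29 for Usp18, -1.06 for Ifitm6, 2.28 for Oas3 and 2.74 for Ifi44. Without IL_TNF_24h replicate 1 this last difference was 1.13 ± 0.20 for Usp18, -0.95 ± 0.23 for Ifitm6, 1.29 ± 0.21 for Oas3 and 1.24 ± 0.30 for Ifi44 (SE), and the 24 h difference between cells with and without IL was negative for 37 genes. Without Ctrl_0h replicate 2 the 6 h differences of Isg15, Dtx3l, Oas1a, Oasl2, Ifih1, Dhx58, Nmi and Sp100 and the 24 h differences of Isg20 and Xaf1 did not pass the edgeR test. The 6 h and 24 h effects with IL come from different sets of libraries, so time and the set cannot be told apart.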

How the results depend on the processing

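Across single genes, leaving out 1 library at a time left 3480 values called in the same direction in both fits or called in neither. It lost the call for 257, gained one for 39 and turned the direction of 4 that were called in at least 1 of the fits. A value called in neither fit is among the 3480 even where its sign changed. Those 4 came without IL_TNF_24h replicate 1: the 24 h interaction of Oas3 was then -0.93 and of Rtp4 -0.83, and the change of the TNF effect with IL between the times was -1.12 for Mx2 and -1.71 for Rsad2. With 1 library left out the highest of these values were 0.44, 0.74, 0.62 and 0.63, without another IL_TNF_24h replicate. Without both Ctrl_0h replicate 2 and IL_TNF_24h replicate 1 these values were -0.78, -0.68, -1.13 and -1.71. The causes of the changes below were not tested. The count called lower in IL_6h against Ctrl_0h, 2, was 4 with the DESeq2 Wald test, 7 without a filter, 7 with the compared groups alone and 9 without both libraries. The count called higher in TNF_24h against TNF_6h, 14, was 26 without a filter, 25 with the compared groups alone and 27 without both libraries. With the compared groups alone 8 genes were higher in IL_24h against Ctrl_0h and 22 in IL_TNF_24h against IL_24h. The 24 h interaction was negative for 37 genes without both libraries and for 21 to 37 with 1 library left out. The count called higher in IL_TNF_6h against IL_6h, 25, was 12 to 19, and in IL_TNF_6h against TNF_6h 0 to 4, with 1 library left out. The change of the TNF effect with IL between the times was positive for 6 genes with the DESeq2 Wald test, 21 without a filter, 1 with the compared groups alone and 2 to 9 with 1 library left out. It was negative for 7 without both libraries and for 1 to 6 with 1 library left out. Over all genes that change was called for 573 genes, 928 with the DESeq2 Wald test, 1069 without both libraries and 343 to 698 with 1 library left out. DESeq2 gave no adjusted p for Ifit1, Ifit2, Oasl1, Rsad2 and Ifi44. Without a filter the median of all genes moved by more than 0.1 in comparisons with Ctrl_0h, to -0.45 in TNF_6h, -0.56 in TNF_24h, -0.67 in IL_6h and -0.73 in IL_24h. Same-numbered libraries showed little sign of deviating together. Of 63 pairs, 6 had a correlation over 0.1, with a median of 0.007 and a range of -0.31 to 0.363. Of 21 libraries, 7 were closest to their own number. With 3 libraries per group this cannot show whether same-numbered libraries shared a mouse or culture. With the replicate block the counts were 42 higher in TNF_6h and 40 in TNF_24h against Ctrl_0h, 27 negative interactions at 6 h and 25 at 24 h, and 4 lower in IL_6h. Ifnb1 was near the limit of what this depth detects.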
